A study of Mus musculus with 6 samples.

Results

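The kallikrein cluster around *Klk9* is a group of 8 genes on mouse chromosome 7: the protease genes *Klk6*, *Klk7*, *Klk8*, *Klk9*, *Klk10*, *Klk11* and *Klk13*, and *2310002F09Rik*, a noncoding gene on the other strand. They are 8 of the 46603 genes in the table of this study. The group was chosen from measured values, namely the authors' own comparison of the genotypes at *Klk9*, and its members were then found by gene symbol. Each symbol had 1 row. RNA-Seq libraries had been made from sciatic nerves of 3 ctrl mice (conditional *Ep400*) and 3 Ep400 cko mice (Dhh::Cre, conditional *Ep400*) at postnatal day 9. Both groups carried the conditional *Ep400* allele, and the labels place them on a mixed 129SvJ/C57Bl/6J background, whereas the methods name C3H and C57Bl/6J. *Dhh::Cre* acts in Schwann cells (SCs), so that other cells of an Ep400 cko nerve kept *Ep400*. The value analysed here is the authors' mean over all 6 libraries, in counts divided by size factors, and it holds both genotypes together. Columns with the authors' fold changes and p-values were not used, and no difference between genotypes is given. Levels of the members are therefore not set against genotype.

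Kallikrein-related proteases are secreted serine proteases that are made as inactive precursors and become active once a short propeptide is cut off. Their genes lie side by side in a single cluster. They are best known from the skin, where they cut the junctions between dying keratinocytes, and from the central nervous system, where some of them are made by neurons and oligodendrocytes. Their activity is held back by serpins and by Kazal-type inhibitors, and some of them cut protease-activated receptors.

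In the mean over all 6 libraries, the cluster was read almost entirely from 3 neighbouring genes, *Klk10*, *Klk9* and *Klk8*. Together they held 94.9% of the summed mean of the 8 members, a share that cannot be given for single nerves or for either genotype. Their starts lie within a short stretch in the order *Klk10*, *Klk9*, *Klk8*, all on the plus strand, and only 819 bases separate the annotated end of *Klk9* from the start of *Klk8*. The genes on either side, *Klk11* and *Klk7*, had a mean of 0 and of 1.43. In mm10, *Klk10* lies from 43781035 to 43785410, *Klk9* from 43791891 to 43796757 and *Klk8* from 43797577 to 43803826 of chromosome 7. Because these 3 genes carry the signal of the locus, their promoter windows from RefSeq (GRCm38.p6) are shown, each with 250 bases before and 50 bases after the start site. The windows are chr7:43780804-43781103 for *Klk10*, chr7:43791641-43791940 for *Klk9* and chr7:43797327-43797626 for *Klk8*, all on the plus strand. Capitals mark matches to GCCNNNGGC, the letters of an AP-2 motif, which was searched because the study is concerned with *Tfap2a*.

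Klk10: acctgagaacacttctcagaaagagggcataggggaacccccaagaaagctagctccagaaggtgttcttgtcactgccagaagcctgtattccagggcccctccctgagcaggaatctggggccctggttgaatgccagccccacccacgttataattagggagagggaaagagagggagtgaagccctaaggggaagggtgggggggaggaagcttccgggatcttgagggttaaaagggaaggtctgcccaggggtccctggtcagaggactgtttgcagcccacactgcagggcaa

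Klk9: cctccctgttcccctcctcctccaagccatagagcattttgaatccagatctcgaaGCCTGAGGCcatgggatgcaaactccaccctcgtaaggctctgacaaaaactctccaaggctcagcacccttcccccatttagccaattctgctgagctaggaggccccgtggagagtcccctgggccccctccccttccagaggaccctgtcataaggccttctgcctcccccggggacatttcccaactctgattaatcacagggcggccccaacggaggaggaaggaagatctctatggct

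Klk8: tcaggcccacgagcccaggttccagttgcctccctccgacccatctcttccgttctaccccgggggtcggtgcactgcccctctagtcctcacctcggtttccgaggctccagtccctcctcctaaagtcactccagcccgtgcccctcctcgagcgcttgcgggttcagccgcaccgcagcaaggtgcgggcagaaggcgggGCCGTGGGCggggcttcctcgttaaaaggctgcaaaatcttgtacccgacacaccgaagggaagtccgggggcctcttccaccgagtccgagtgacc

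The windows of *Klk9* and *Klk8* each held 1 such match, and that of *Klk10* held 0. Over all 32544 RefSeq windows of this length, 16.7% held a match. A TATA box, spelled TATAAA, was in 13.6% of all windows and in none of these 3. The AP-1 motif TGANTCA was in 7.79% of all windows and likewise in none of them. The same held for a Sox motif, ACAAAG, which was in 18.7% of all windows. All 4 motifs were searched on both strands. Among the windows of the other members, the Sox letters were found in 1 of the 2 windows of *Klk6* and in 1 of the 2 of *Klk11*, and there was no other match. The *Klk8* window stood apart in base composition, with 65.3% G and C and 23 CG dinucleotides. The windows of *Klk9* and *Klk10* had 57.7% and 57.3% G and C, and 6 and 2 CG dinucleotides, beside a median of 53.0% and 7 over all windows. A match in these letters is a description of the sequence, and binding was not measured in the data used here.

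*Klk9*, a protease gene about whose substrates little is known, had the highest level of the cluster. Its mean was 620.1 normalized counts, which was 51.7% of the summed mean of the members (95% Wilson interval 50.6% to 52.9%, computed as if 6 times a mean were a number of reads, and covering counting error only). *Klk10*, whose human counterpart was described in normal epithelial cells, followed with 339.7 normalized counts, or 28.4% of the sum (27.3% to 29.4%). *Klk8* encodes neuropsin, which is known from synaptic plasticity in the hippocampus and from the epidermis, and had 178 normalized counts or 14.8% (14.0% to 15.7%). Per kb of annotated exon the order stayed the same, with 420.1 normalized counts per kb for *Klk9*, 247 for *Klk10* and 116 for *Klk8*. On this scale *Klk9* was 1.70 times as high as *Klk10* and 3.64 times as high as *Klk8*. How far these levels spread between nerves cannot be told from a mean over the 6 libraries.

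Among all genes of the nerve, the 3 genes can be placed by count alone, which grows with the length of a gene and so is no comparison of levels per length. By this measure 78.8% of the 30644 genes with a mean above 0 lay below *Klk9*, 71.4% below *Klk10* and 65.0% below *Klk8*. Among the 17012 genes whose mean reached 10, 61.7%, 48.4% and 36.9% lay below them. All 8 members together made up 0.00468% of the summed means of the table, which came to 25608535 normalized counts per average library. In a whole nerve, fewer cells of a type and less RNA per cell cannot be told apart.

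**Figure D1:**
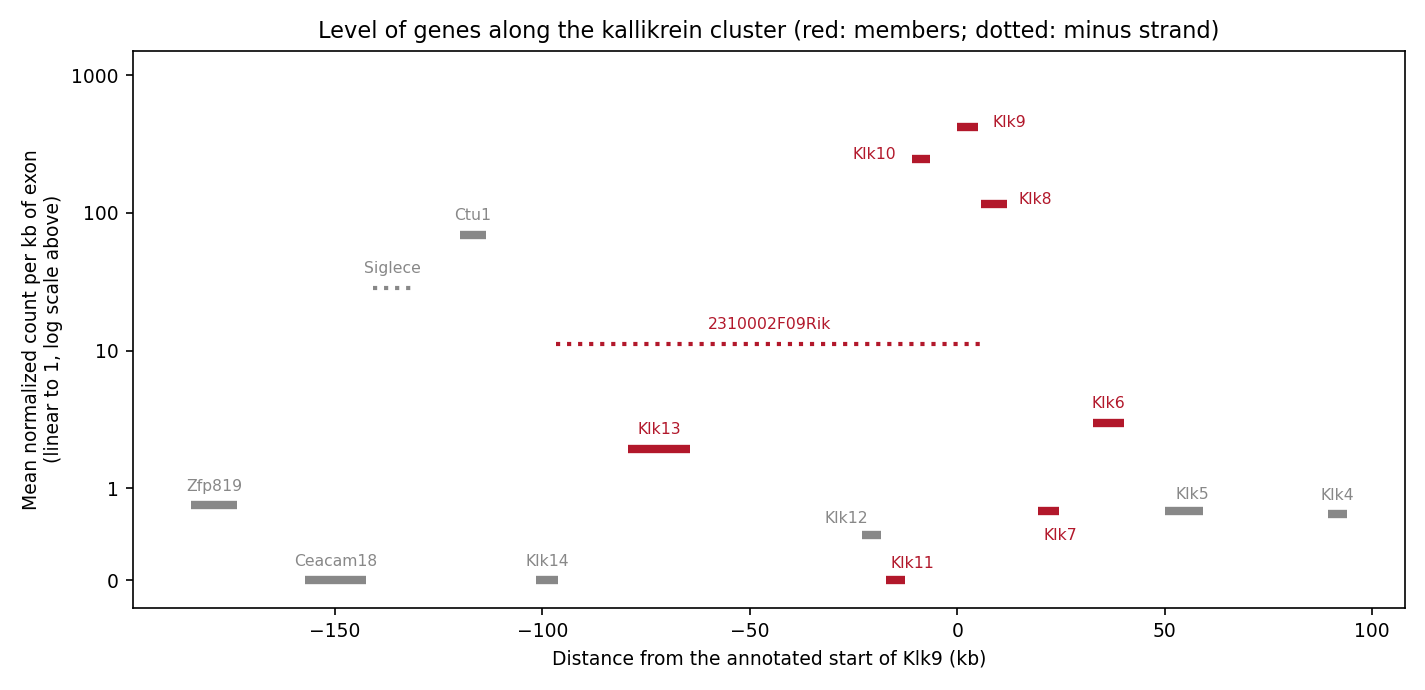
Mean normalized count per kb of exon (linear up to 1, log scale above) of the genes of the table within 100 kb of the cluster, by distance in kb from the annotated start of *Klk9*. Bars span each gene, red marks the members and dotted bars lie on the minus strand; *Klk10*, *Klk9* and *Klk8* stand at 247, 420.1 and 116, between *Klk11* at 0 and *Klk7* at 0.752.

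The antisense gene *2310002F09Rik* was the only other member with a mean above 10 normalized counts. Its mean was 50.2, or 4.19% of the summed mean (3.75% to 4.67%, counting error only). In single libraries the gene had between 7.25 and 119 normalized counts, as given below. Its annotation runs on the minus strand from 43695209 to 43797958, over 102.75 kb, and covers all of *Klk13*, *Klk11*, *Klk10* and *Klk9*. These 4 genes lie opposite its introns and share 0 exon bases with it. In this annotation its 5′ end reaches into *Klk8*, where 382 bases overlap, or 24.8% of the exon bases of *Klk8* and 8.50% of its own. Per kb of exon its level was 11.2 normalized counts, beside 420.1 for *Klk9* and 116 for *Klk8*. The RefSeq start of the gene lies within the cluster instead, between *Klk13* and *Klk11*, with a promoter window at chr7:43755887-43756186 on the minus strand, so the overlap depends on the annotation. A stranded kit was used, but the sources used here do not say whether reads were counted by strand, and the values of *Klk8* and *2310002F09Rik* are uncertain where they overlap.

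*Klk11*, which encodes a trypsin-like protease also known as hippostasin, had a mean of 0. It was thus not read in any of the 6 libraries, and a count of 0 allows an expected number of up to 3 reads in all, or a mean of at most 0.551. It lies on the plus strand from 43774604 to 43779263, directly before *Klk10*, and has 6 exons as *Klk10* does. *Klk13* lies farther away, from 43712567 to 43727534, and had a mean of 4.45 normalized counts (1.94 per kb). *Klk7*, from 43811294 to 43816359, encodes the chymotrypsin-like enzyme of the stratum corneum and had 1.43 (0.752 per kb). *Klk6*, from 43824499 to 43832030, encodes a protease made by oligodendrocytes that can cut myelin basic protein, and had 4.54 (3.00 per kb).

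The means of the low members could be taken apart further. A mean is the sum of whole reads, each weighted by its library, and the smallest means of the table show what 1 read in each of the 6 libraries is worth. Size factors read in this way lay between 0.908 and 1.20. The 6 libraries are numbered here from the largest size factor to the smallest, and they carry no label of genotype. For *Klk6*, the reads in libraries 1 to 6 were 0, 2, 0, 14, 5 and 5. For *Klk13* they were 0, 0, 5, 2, 13 and 5. For *Klk7* they were 0, 0, 0, 1, 7 and 0. Thus *Klk6* and *Klk13* were each read in 4 libraries and *Klk7* in 2, with 26, 25 and 8 reads in all. *Klk6* was highest in library 4, and *Klk13* and *Klk7* were highest in library 5. These single libraries set much of each mean. Without library 4, the mean of *Klk6* was 2.54 normalized counts instead of 4.54. Without library 5, that of *Klk13* was 2.55 instead of 4.45 and that of *Klk7* was 0.207 instead of 1.43. Library 1, which had the largest size factor, held no read of these 3 genes.

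*2310002F09Rik* could be split in the same way once means of up to 60 were admitted, a limit set after seeing the data. Its reads in libraries 1 to 6 were 13, 8, 7, 83, 111 and 64, with the most in library 5 and the fewest in library 3. Divided by the size factors, the values were 10.8, 7.33, 7.25, 86.1, 119 and 70.5 normalized counts. The mean of 50.2 therefore lay close to none of the 6 libraries. The means of *Klk8*, *Klk9* and *Klk10* are too high to be split, since many sets of reads would give the same digits.

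**Figure D2:**
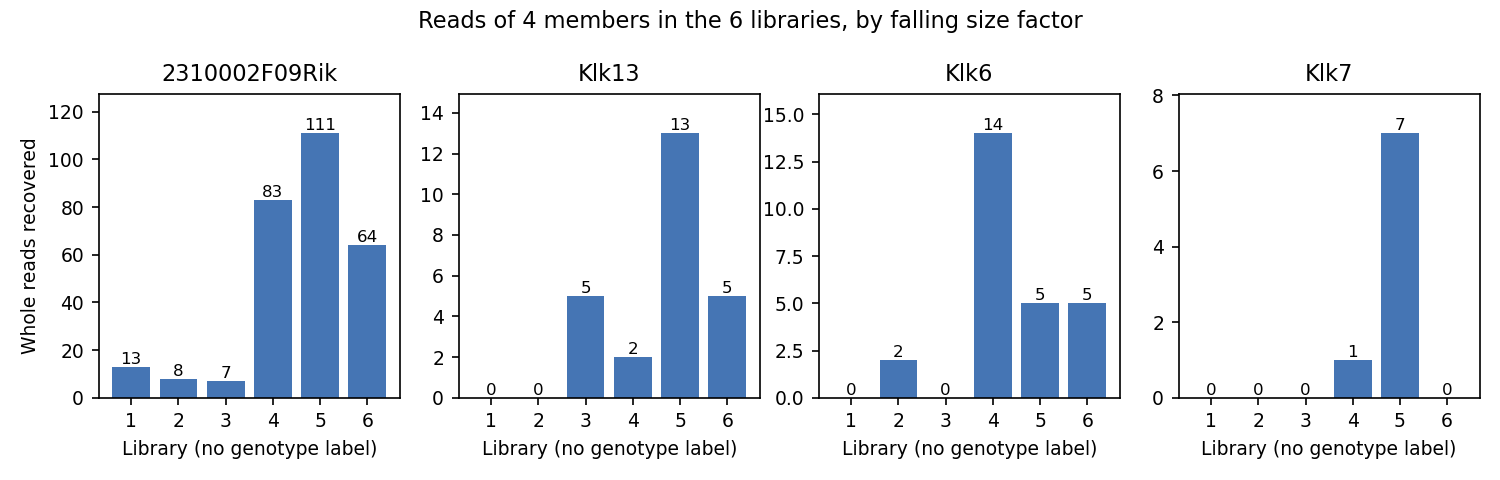
Whole reads of *2310002F09Rik*, *Klk13*, *Klk6* and *Klk7* (vertical axes, each with its own scale) in the 6 libraries (horizontal axes, ordered from the largest to the smallest size factor, without a genotype label). Bars are single libraries and carry their read number; *2310002F09Rik* had between 7 and 111 reads, with the most in library 5.

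The 7 proteases are related proteins but differ enough to be counted apart from each other. Over the 21 pairs of the 7 proteases, translated from their longest GENCODE coding sequences, between 37.9% and 51.8% of aligned residues were identical, with a median of 45.4%. The most alike pair was *Klk11*, which had a mean of 0, and *Klk9*. The 3 high genes were not the closest relatives of each other, with 47.0% identity between *Klk9* and *Klk8*, 41.5% between *Klk10* and *Klk8* and 37.9% between *Klk10* and *Klk9*. The proteins have 249 to 278 residues. The annotated transcripts held 1427 windows of 50 bases for *Klk9*, 1324 for *Klk10* and 1536 for *Klk8*. Read in the direction of the transcript, 0 occurred in a transcript of another gene, and the same held for the other 5 members. Unique mapping, as the authors used it, could thus tell these transcripts apart for reads of that length. The exception is the stretch of 382 bases that *Klk8* shares with *2310002F09Rik* on the other strand, where only strand separates them. The sources used here do not state the read length.

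Beyond the members, the table held 20 other kallikrein genes of this family, of which 10 had a mean of 0. None reached 10 normalized counts. The highest was *Klk1*, tissue kallikrein, the gene that makes kinins from kininogen, with 9.00, followed by *Klk1b22* with 2.23. All 20 together made up 1.31% of the summed mean of the kallikrein genes and the antisense gene. Reads of *Klk1* were found in all 6 libraries, with 3, 13, 4, 11, 6 and 16 in libraries 1 to 6. *Klk12* lies before *Klk11* and had 0.583, with 2 reads in each of libraries 1 and 2. *Klk5*, which follows *Klk6* and encodes a trypsin-like protease that activates other kallikreins in human skin, had 1.00, and *Klk14*, which lies beyond *Klk13* at the other end, had 0. Within 100 kb of the cluster, 2 of the 8 genes of the table that were not members reached 10 normalized counts. These were *Ctu1*, a gene of tRNA modification, with 172 (69.4 per kb), and *Siglece*, a sialic acid receptor gene of myeloid cells, with 52.7 (28.5 per kb).

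Genes known to regulate kallikreins or to encode proteins they cut were set beside the cluster as 3 lists. Among 7 inhibitor genes, of which 5 reached 10 normalized counts, *Serpine2*, which encodes protease nexin-1, was highest with 343 normalized counts per kb. *Spint1* and *A2m*, a Kunitz-type inhibitor gene and the gene of alpha-2-macroglobulin, had 78.7 and 64.3 per kb. *Spink5*, the Kazal-type inhibitor gene of kallikreins in skin, had 0.246 per kb, and *Serpina5* had 0.255. Among 5 genes of activating proteases, of which 3 reached 10 normalized counts, the plasminogen activator genes *Plat* and *Plau* had 409 and 101 per kb, whereas *Plg*, the plasminogen gene, had 1.88. None of the inhibitor and activating protease genes listed lay above *Klk9* per kb of annotated exon. By count, *Serpine2* with 2840 and *Plat* with 2551 normalized counts lay above *Klk9* with 620.1. Their exon unions are longer, with 8287 and 6241 bases beside 1476 for *Klk9*. This order therefore depends on the length used, and other lengths were tried for the members only.

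Of the 13 genes of receptors and other targets, 11 reached 10 normalized counts and 3 lay above *Klk9* per kb. These were *Mbp* with 56358 normalized counts per kb, *Fn1*, the fibronectin gene, with 6931, and *App*, the amyloid precursor gene, with 2027. The neuropsin substrates *L1cam* and *Ephb2* had 396 and 256 per kb. By count they had 2906 and 3225, above the 620.1 of *Klk9*, so their place beside it also depends on the length used. Of the protease-activated receptor genes, *F2r* had 138, *F2rl1* had 16.3 and *F2rl2* had 1.74 per kb. *Dsg1a*, a desmoglein gene of the epidermis, was the lowest of the 13 with 0.122 per kb.

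**Figure D3:**
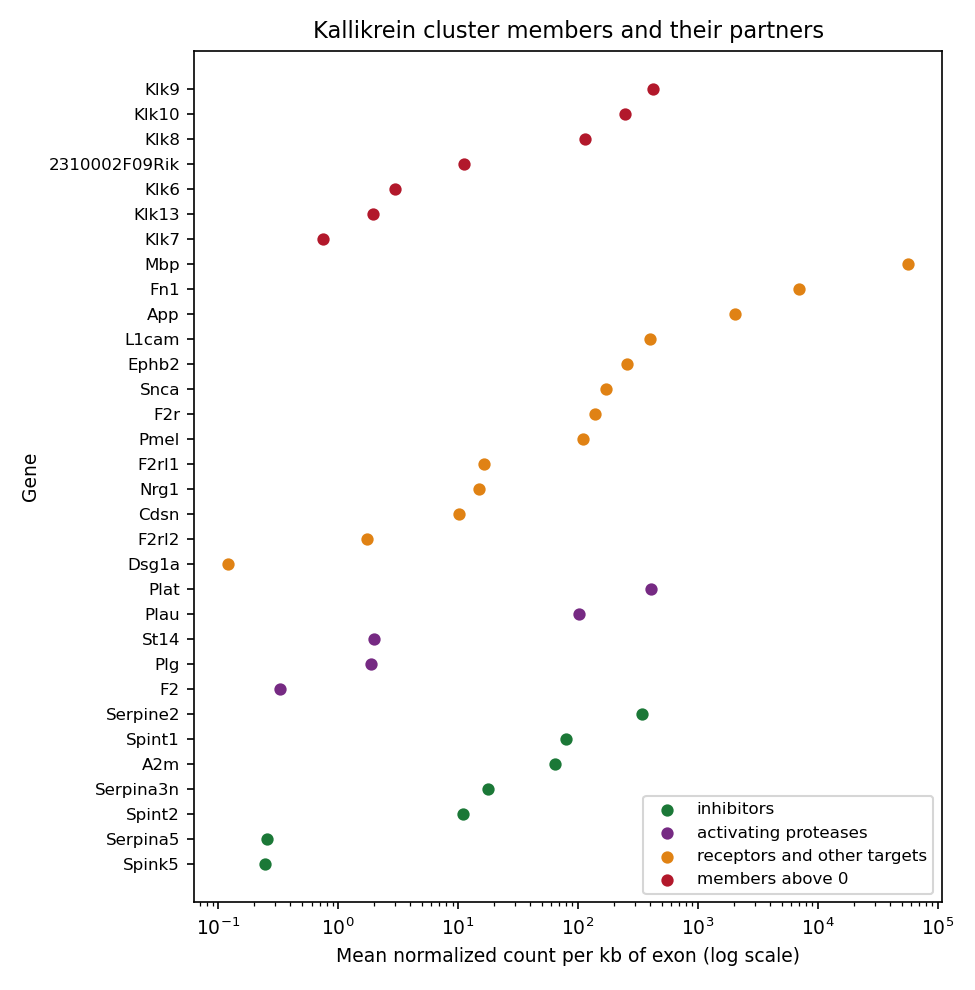
Mean normalized count per kb of exon (log scale, horizontal axis) of the 7 members with a mean above 0 and of 7 inhibitor, 5 activating protease and 13 receptor or target genes, grouped by colour and ordered by level within each group. *Klk9* at 420.1 per kb lies beside *Plat* at 409 and *L1cam* at 396, and *Spink5* lies near the left edge at 0.246.

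Marker genes showed the tissue the labels name. Among SC markers, *S100b* had 6249 normalized counts, *Sox10*, a transcription factor gene of the SC lineage, had 11447, and *Prx*, the periaxin gene, had 84779. Fibroblast, endothelial, macrophage, mast cell, adipocyte and skeletal muscle markers were each present, and the muscle genes ranged from 6940 to 29176. Since kallikreins are known from skin, 10 genes of epidermal keratinocytes were set beside the members. Their summed mean was 236, of which *Krt10* held 194 and *Trp63* 23.7, while *Krt5*, *Krt1* and *Krt14* had 7.55, 5.79 and 0.936 and *Flg* had 0. The 8 epidermal markers whose reads could be split had 47, 26, 24, 55, 51 and 49 reads in libraries 1 to 6. Beside them, *2310002F09Rik* had 13, 8, 7, 83, 111 and 64. *Krt10*, with most of the summed mean, was too high to be split, and *Trp63* alone held 141 of the 252 epidermal reads. The part of epidermal cells in the level of the members was not tested. Of 5 oligodendrocyte genes, *Olig2* had a mean of 0, *Mog* one of 0.416 and *Olig1* one of 1.96. *Mobp* was highest with 97.8, followed by *Myrf* with 81.1.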

How the data were processed

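RNA of sciatic nerves at postnatal day 9 was sequenced from 3 ctrl and 3 Ep400 cko mice, labelled as biological replicates. Per the labels and methods, the authors made libraries with a stranded mRNA kit. They used STAR 2.5.1 for alignment to mm10 and HTSeq for counting uniquely mapped reads over Ensembl genes. The authors ran DESeq2. The table's header names Ensembl 82, and the methods name a later release. The deposited signal is 1 value per gene, namely counts scaled by the authors with size factors and averaged over all 6 libraries, although its header calls it raw. The other deposited columns hold the authors' comparison of the genotypes (fold changes, standard errors, a Wald statistic and p-values) and were not used, so the planned count test between genotypes was not made. The methods give an approximate number of sequenced reads per library. The depth of the counted reads is known only as the sum of the means, 25608535 normalized counts per average library.

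Members were found by symbol. Levels per kb used the union of exons of GENCODE M21 on mm10, whose gene models can differ from the authors' release. Members, other kallikrein genes, partners and markers with a mean above 0 and no higher than 40 were resolved into whole reads for each of the 6 libraries. This was done within the error of their 15 printed digits. Over the whole series, the check was run up to a mean of 5, where all 11962 genes above 0 gave exactly 1 set of reads. Tested on simulated data with means of up to 40, the step recovered 200 of 200 sets of reads. A share has a 95% Wilson interval. All members are named, as are the partner and marker genes of fixed lists. Other kallikrein genes were to be named from a mean of 10, which none reached, so those named, and the neighbours beyond the nearest, were chosen after their values were seen. The members and lists were chosen with earlier results of these data known. The 4 promoter motifs were chosen later, with the paper known. Protein identity came from global alignment (BLOSUM62). Alternatives were other lengths, other denominators, floors of 1 and 50 on the mean, a 10 times narrower tolerance and, added after seeing the data, the longest transcript, shares without the antisense gene, means of up to 60 and, for the members resolved into reads, the mean without each library in turn. Python 3.11.15, numpy 2.4.6, pandas 2.3.3, scipy 1.17.1, Biopython 1.88 and matplotlib 3.10.9 were used.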

Additional observations from a re-analysis of the deposited data

How the results depend on the processing

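Divided by the coding length, *Klk9* had 824 normalized counts per kb, and the order of *Klk9*, *Klk10* and *Klk8* stayed the same with 407 and 228 for the other two. Without the antisense gene, the share of *Klk9* in the summed mean was 54.0%. Among genes with a mean of at least 10, 61.7% lay below *Klk9*. At a floor of 1 on the mean, 7 members were counted, and at floors of 10 and 50 there were 4. By its longest transcript, *2310002F09Rik* had 20.3 normalized counts per kb. The reads of all 4 members that were split gave 1 set at both tolerances, whereas over genes with a mean of up to 5 the narrower tolerance, which is below the rounding of the printed digits, kept 43.5%. No paired analysis was possible because the value is a mean over both genotypes. Leaving out each library in turn could be run only for the 4 members whose reads were split. Their means then ranged from 2.54 to 5.45 for *Klk6*, from 0.207 to 1.71 for *Klk7*, from 2.55 to 5.34 for *Klk13* and from 36.4 to 58.8 for *2310002F09Rik*. *Klk6* moved by over 1.5 times without library 4, as did *Klk7* and *Klk13* without library 5. Summing all rows of a symbol could change no value, since each member had 1 row. The levels of *Klk8*, *Klk9* and *Klk10* have no error between nerves.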

Other observations

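The recovered reads of *2310002F09Rik* were spread unevenly, with 13, 8 and 7 reads in libraries 1 to 3 and 83, 111 and 64 reads in libraries 4 to 6. This grouping was drawn from the values themselves. The locus was chosen from the authors' comparison of the genotypes at *Klk9*, so an uneven spread in a member is no independent result. The low proteases *Klk6*, *Klk7* and *Klk13* together had 0, 2, 5, 17, 25 and 10 reads in libraries 1 to 6, also with most in libraries 4 to 6. Singly, they did not all follow this order. *Klk13* had 5 reads in library 3 and 2 in library 4, and *Klk7* had 0 in library 6. Markers of other cells also differed between libraries. Of the oligodendrocyte genes, *Olig1* had 0, 0, 0, 3, 5 and 3 reads in libraries 1 to 6, whereas *Mog* had 3, 0, 0, 0, 0 and 0. The 8 epidermal markers, *Krt10* not among them, had 47, 26, 24, 55, 51 and 49 reads, and *Trp63* held 141 of these. The part of these cell types in the reads of the members was not tested. No genotype was assigned to any of these libraries, and no test was made between them.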
